A study of Mus musculus with 6 samples.

Results

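Stard10 and 7 related genes of the START domain family (Stard3, Stard4, Stard5, Stard7, Stard8, Stard13 and Star) were followed in mouse bone marrow. Every probe set to which the array's annotation gives exactly 1 gene symbol, that symbol being one of these 8, was taken, which gave 16 of the 45037 probe sets on the array. The marrow came from adult females of a pair of crosses that share the FVB/NJ parent, (AKR/J x FVB/NJ)F1, or AKR F1 below, with 3 arrays, and (DBA/2J x FVB/NJ)F1, or DBA F1, with another 3. Every animal thus carried an FVB/NJ copy of each autosomal gene beside an AKR/J or a DBA/2J copy, no treatment was compared, and the animals were euthanized under Avertin anaesthesia. The study asked which genes differ in basal expression between these genotypes. Stard10 entered because earlier results of these arrays put it among the largest differences, so the family's differences are given as a description, and no test of them is used as evidence.

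The START domain, named after the steroidogenic acute regulatory protein, is a fold with a deep hydrophobic pocket that holds a lipid and carries it between membranes through the cytosol. Members differ in cargo and in what is attached to the domain. STARD10 and STARD7 carry phosphatidylcholine, and STARD10 also carries phosphatidylethanolamine. StAR, STARD3, STARD4 and STARD5 are known or proposed sterol carriers, and STARD8 and STARD13 join the domain to a further one. Marrow is a mixture of maturing blood cells and stroma, and in RNA of whole marrow fewer cells of a type and less RNA per cell cannot be told apart.

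The sequence before the start of Stard10 is shown with that of Stard7, the other phosphatidylcholine carrier, because both genes had a probe set whose groups did not overlap, in opposite directions. Each line gives the 250 bases before the annotated gene start, 5′ to 3′ on the gene's own strand, from RefSeq on build GRCm38.p6, which is the sequence of a strain (C57BL/6J) that is none of the parents. Stard10 lies on the plus strand of chromosome 7 (window chr7:101316836-101317085) and Stard7 on the plus strand of chromosome 2 (window chr2:127269979-127270228). Capitals mark matches to 5 motifs, searched on both strands. They are TGATAA (bound by GATA factors), its variant with AGATAA in its place, the NF-Y box CCAAT, the Sp1 motif GGGCGG (a GC box) and the motif TATAAA of the TATA box, and no motif contains another.
Stard10: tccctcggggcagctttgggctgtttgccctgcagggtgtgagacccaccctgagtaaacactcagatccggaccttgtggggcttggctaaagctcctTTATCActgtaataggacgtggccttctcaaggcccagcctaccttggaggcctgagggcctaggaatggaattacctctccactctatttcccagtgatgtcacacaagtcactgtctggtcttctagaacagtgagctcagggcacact
Stard7: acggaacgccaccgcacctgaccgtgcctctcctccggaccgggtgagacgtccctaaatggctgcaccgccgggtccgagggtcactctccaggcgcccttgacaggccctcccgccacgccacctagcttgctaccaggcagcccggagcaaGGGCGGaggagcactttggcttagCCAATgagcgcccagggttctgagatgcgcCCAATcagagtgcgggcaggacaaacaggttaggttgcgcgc

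The Stard10 window held 1 match to the first GATA motif, on the minus strand (written TTATCA above), and no match to the other motifs. The first GATA motif occurs in 7.94% of the 32851 windows of this length in the reference table, its variant in 9.99%, the NF-Y box in 33.8%, the GC box in 32.7% and the TATA box in 12.4%. The Stard7 window held 2 NF-Y boxes and 1 GC box. Windows were listed for 6 members, and Stard3, Stard5, Stard8 and Stard13 had 1, 2, 2 and 3 NF-Y boxes and 4, 4, 1 and 0 GC boxes, with no GATA motif or TATA box among them. The share of G and C was 54.4% for Stard10 and 66.0% for Stard7, against a median of 52.4% over all windows. A match is a description of these letters and not a measured binding site.

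Stard10 was read by a single probe set, 1448956_at. Its log2 values were 10.94, 10.64 and 10.82 on AKR F1 replicates 1 to 3 and 9.26, 9.30 and 8.84 on DBA F1 replicates 1 to 3. All AKR F1 arrays lay above all DBA F1 arrays, with 1.34 between the lowest of one group and the highest of the other. The group means were 10.80 ± 0.15 and 9.13 ± 0.26 (SD, n = 3 each), a difference of 1.67 (SE 0.14), which is 3.18-fold. Among 18193 genes it ranked 9 from the top by difference, and leaving out each array in turn gave differences from 1.52 to 1.76. No other probe set of the array names Stard10 alone, so no second reading of the transcript is available within these arrays, and differences in sequence between the strains at the probes were not analysed here.

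Stard7, which supplies mitochondria with phosphatidylcholine, lay the other way. Its bright probe set 1449628_s_at read 10.09, 10.06 and 10.10 in AKR F1 and 10.35, 10.27 and 10.41 in DBA F1. The groups did not overlap, with a gap of 0.16, and the difference was -0.26 (SE 0.09), or 1.20-fold. The suffix _s_at marks probes that can match transcripts of more than 1 gene. The dimmer probe set 1445024_at overlapped between the groups (5.30 to 5.52 against 5.35 to 5.63) and differed by -0.08.

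**Figure D1:**
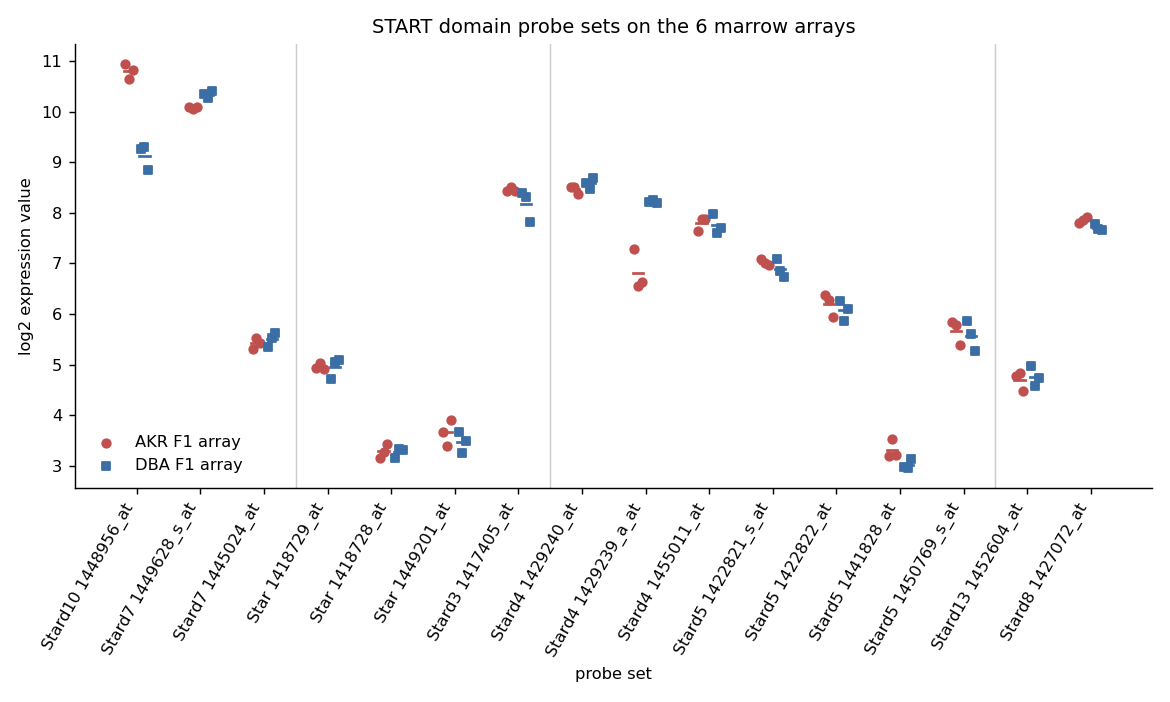
Log2 expression value (vertical axis) of each of the 16 probe sets (horizontal axis) on each array, red circles for AKR F1 and blue squares for DBA F1, short lines for group means, and grey vertical lines between phospholipid carriers, mitochondrial and endosomal sterol carriers, soluble sterol carriers and members with a further domain. Stard10 and Stard4 1429239_a_at show the widest gaps between the groups, 1.34 and 0.91, and levels are to be compared within a probe set only.

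Among the carriers tied to mitochondria and endosomes, Star showed low signals and no separation. StAR itself brings cholesterol to the inner mitochondrial membrane of steroid-making cells. Its brightest probe set, 1418729_at, read 4.94, 5.03 and 4.92 in AKR F1 against 4.72, 5.05 and 5.10, so the means differed by 0.01 (SE 0.12). The other probe sets, 1418728_at and 1449201_at, differed by 0.02 and 0.19, also with overlapping groups. All 3 lay below the median of the array on every array, where medians ran from 5.14 to 5.19. Steroidogenic markers were likewise dim, with mean log2 levels of 4.88 to 5.02 in AKR F1 and 4.81 to 4.86 in DBA F1. In limma's test at the adjusted threshold 0 of the 5 genes passed, where 15.2% of all genes did.

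Stard3, a cholesterol carrier anchored in late endosomes, read 8.43, 8.52 and 8.43 in AKR F1 and 8.39, 8.31 and 7.81 in DBA F1 (1417405_at). The groups were apart by only 0.03, and the difference was 0.29 (SE 0.15). Without DBA F1 replicate 3, the lowest array, it was 0.11.

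The soluble sterol carriers gave the second large difference of the family, at 1 of 3 Stard4 probe sets. STARD4 moves cholesterol between the plasma membrane, the endoplasmic reticulum and endosomes, and its gene is a target of the sterol-sensing factor SREBP2. Probe set 1429239_a_at read 7.29, 6.55 and 6.64 in AKR F1 and 8.22, 8.26 and 8.20 in DBA F1. AKR F1 was lower on every array, by -1.40 (SE 0.18), which is 2.64-fold, and by -1.26 to -1.63 when each array was left out. The brightest Stard4 probe set, 1429240_at, read 8.52, 8.52 and 8.38 against 8.60, 8.48 and 8.69, and the third, 1455011_at, 7.64, 7.88 and 7.87 against 7.98, 7.61 and 7.70. Both overlapped between the groups, with differences of -0.11 (SE 0.10) and 0.03 (SE 0.12).

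The Stard4 probe sets therefore moved unequally. Within each array, 1429239_a_at minus 1429240_at was -1.23, -1.98 and -1.74 in AKR F1 and -0.38, -0.22 and -0.49 in DBA F1, and 1429239_a_at minus 1455011_at was -0.35, -1.33 and -1.23 against 0.24, 0.65 and 0.50. In both pairs every AKR F1 array lay below every DBA F1 array. The suffix _a_at marks probes that can match several transcripts of the same gene. A measure of RNA and labelling quality ran alongside: the 3′ minus 5′ index, the mean log2 excess of the 3′ over the 5′ probe set of actin, Gapdh and 4 poly-A spikes, was 1.66, 2.22 and 2.08 in AKR F1 and 1.44, 1.54 and 1.45 in DBA F1. AKR F1 replicate 1 had the index nearest to DBA F1 and also the Stard4 1429239_a_at value nearest to DBA F1, an observation on 1 array. With the index as a covariate, an alternative chosen after seeing the data, the difference at 1429239_a_at was -0.73 (SE 0.18). The Stard10 difference with this covariate was 1.87 (SE 0.26). With the mean signal of the spiked hybridization controls as a covariate instead, the difference at 1429239_a_at was -1.71 (SE 0.44). Neither the index nor these controls overlapped between the groups. Their part in the Stard4 difference therefore cannot be told apart from that of genotype.

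**Figure D2:**
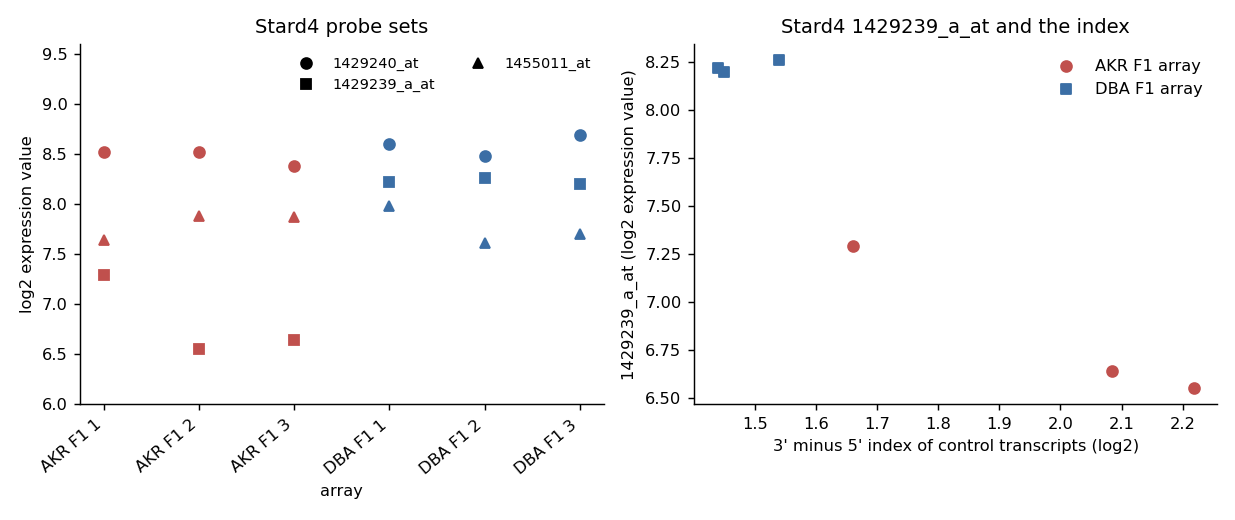
Left, log2 expression value of the 3 Stard4 probe sets (a marker shape for each) on each array, AKR F1 in red and DBA F1 in blue. Right, log2 value of Stard4 1429239_a_at (vertical axis) against the 3′ minus 5′ index of control transcripts in log2 (horizontal axis), 1 point per array, where AKR F1 replicate 1 lies between the other AKR F1 arrays and the DBA F1 arrays with an index of 1.66 and a value of 7.29.

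Stard5, a cholesterol carrier known from macrophages and liver, has 4 probe sets, and 3 of them overlapped between the groups. The brightest, 1422821_s_at, read 7.09, 7.0 and 6.96 in AKR F1 and 7.08, 6.86 and 6.73 in DBA F1, and the means differed by 0.12 (SE 0.11). Probe sets 1422822_at and 1450769_s_at differed by 0.13 (SE 0.14) and 0.09 (SE 0.18). The fourth, 1441828_at, separated the groups by 0.06 (3.19, 3.53 and 3.21 against 2.98, 2.96 and 3.13), but it lay under the lower quartile of every array, so its difference of 0.29 concerns values near the floor.

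The members with a further domain differed little. Stard8, on the X chromosome, read 7.79, 7.85 and 7.92 in AKR F1 and 7.77, 7.68 and 7.66 in DBA F1 (1427072_at), with groups 0.02 apart and means 0.15 apart (SE 0.09). Stard13, also known as DLC2, read 4.78, 4.84 and 4.47 against 4.98, 4.57 and 4.74 (1452604_at). Its groups overlapped, its difference was -0.07 (SE 0.14), and it lay below the median of every array.

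Seen together, 11 member probe sets had a higher mean in AKR F1 and 5 a lower one. The groups did not overlap at 6 of 16 (4 with AKR F1 higher, 2 with it lower), where 33.0% of all probe sets did not overlap (18.1% with AKR F1 higher and 14.9% with it lower). Past the threshold of limma's test over all probe sets (adjusted p of 0.05) were 2 of 16, Stard10 and Stard4 1429239_a_at, against 12.3% of all probe sets (5.57% higher and 6.73% lower), counts from which nothing is read because the family was chosen on this comparison. The median absolute difference was 0.13 over the 16 and 0.15 over all probe sets. Apart from Stard10 and Stard4 1429239_a_at the differences ran from -0.26 to 0.29.

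**Figure D3:**
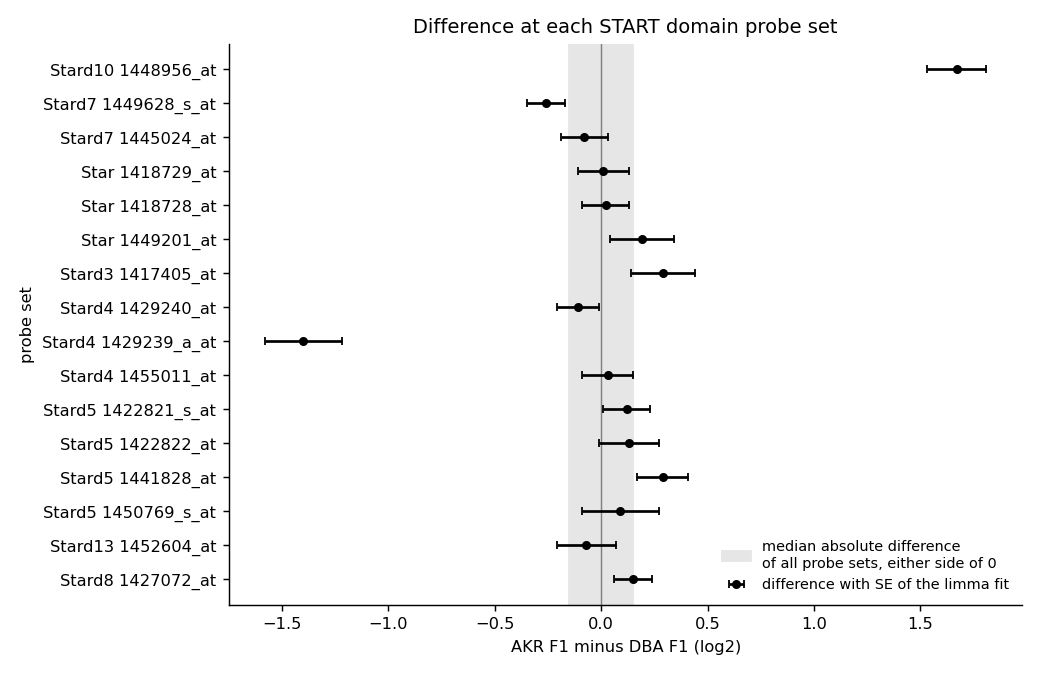
AKR F1 minus DBA F1 difference in log2 (horizontal axis) with the standard error of the limma fit at each of the 16 probe sets (vertical axis), and in grey the median absolute difference of all probe sets, 0.15, on either side of 0. Stard10 lies at 1.67 and Stard4 1429239_a_at at -1.40, and the other 14 lie between -0.26 and 0.29.

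Some properties of the arrays moved with the groups and so with every value above. Marrow markers were bright: 11 of 11 neutrophil, 10 of 11 erythroid and 5 of 5 megakaryocyte genes lay above the median of every array. Erythroid markers averaged 10.76 to 10.84 in AKR F1 and 10.41 to 10.66 in DBA F1, with 4 of 11 past the test, all higher. Monocyte and macrophage markers averaged 9.29 to 9.51 against 8.96 to 9.19, with 4 of 9 higher. Skeletal muscle markers averaged 6.92 to 8.07 against 8.87 to 11.71, with 8 of 11 lower. Over all genes 9.20% passed as higher, 6.04% as lower and 15.2% either way. List means overlapped between the groups for neutrophil markers (1 higher and 1 lower of 11) and B cell markers (1 and 2 of 9). They also overlapped for T and NK cell markers (2 and 1 of 8) and for stroma, bone and endothelium (2 and 0 of 9). Megakaryocyte (1 and 0 of 5) and adipocyte markers (0 of 5) overlapped too. Epithelial markers, of interest because Stard10 is known from mammary epithelium and liver, averaged 5.02 to 5.16 against 4.99 to 5.07, with 0 of 5 past the test in limma. Hybridization controls averaged 10.08 to 10.28 in AKR F1 and 10.62 to 11.03 in DBA F1, and with them as a covariate the Stard10 difference was 1.84 (SE 0.35). The part of the cell markers in the Stard10 difference was not tested.

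The genes next to Stard10 were tested, since the choice of the family did not use them. Of the 5 nearest measured genes on each side on chromosome 7, 5 of 10 were higher in AKR F1 and none lower in limma's test over all genes, where 9.20% of genes passed as higher, 6.04% as lower and 15.2% in either direction. With dim probe sets left out, 5 of 8 passed, all higher, beside 2956 of 11550 genes, of which 1771 were higher. The median difference of the 10 was 0.34, against 0.06 over all genes. The 3′ minus 5′ index and the hybridization controls did not overlap between the groups. Their part in these calls cannot be told apart from that of genotype. Arhgef17 was at 5.90 ± 0.28 against 5.23 ± 0.23 (difference 0.67, adjusted p = 0.029 in limma), but its 4 other probe sets differed by at most 0.10. Pde2a, a cyclic nucleotide phosphodiesterase gene, differed by 0.50 (adjusted p = 0.020 in limma) at a level of 12.01 in AKR F1, and its other probe sets by 0.43 and 0.98, both past the probe set test.

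Arap1, the gene next to Stard10 on its far side, differed by 0.44 (SE 0.12, adjusted p = 0.039 in limma). The mitochondrial disaggregase gene Clpb differed by 0.44 (adjusted p = 0.036) and the inositol phosphatase gene Inppl1 by 0.35 (adjusted p = 0.038), also in limma. A second, dimmer probe set of Clpb differed by -0.24 and did not pass. Phox2a (0.23), P2ry6 (0.28), Fchsd2 (-0.18), Atg16l2 (0.32) and P2ry2 (-0.09) did not pass. Leaving out AKR F1 replicates 1, 2 and 3 in turn reduced the 5 calls to 2, 0 and 0, and without DBA F1 replicates 2 and 3 it became 1 each, with all remaining calls higher. With each gene's probe sets averaged it was 3: Arhgef17 (0.18) and Clpb (0.10) lost their calls, and Pde2a stood at 0.64. Of the 28 nearest genes of the other members (2 on each side) 0 passed in limma, where 15.2% of all genes did. With dim probe sets left out, only 15 of the 28 remained, against 8 of the 10 Stard10 neighbours. The counts of these 2 sets of neighbours are therefore not a like comparison.

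**Figure D4:**
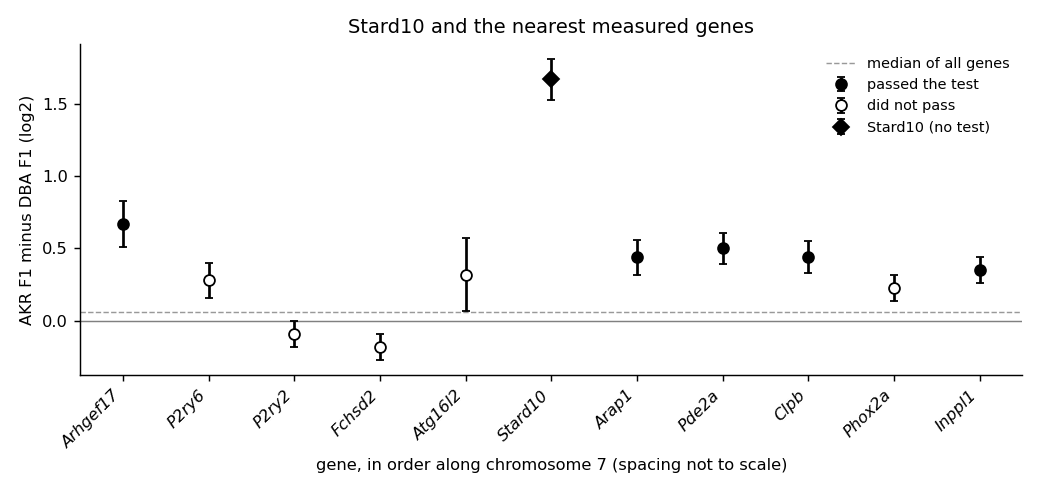
AKR F1 minus DBA F1 difference in log2 with the standard error of the limma fit (vertical axis) for Stard10 (diamond) and the 5 nearest measured genes on each side in their order on chromosome 7 (horizontal axis, not to scale), filled circles for genes past the test open circles for the rest and a dashed line at the median of all genes, 0.06. Stard10 stands at 1.67, and at these brightest probe sets the neighbours lie between -0.18 and 0.67.

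Over the 6 arrays, 5 genes followed Stard10 most closely among the 11548 others with a signal above the median probe set. They were Ppp1r35 (Pearson r = 0.9985), Ap2a1 (0.9983), Dcpp3 (0.9981), Creg1 (0.9980) and Gfi1b (0.9978). These are descriptions over 6 arrays that share the group difference, and 599 genes reached an r of 0.95. The 5 were picked for this correlation, so a like order of arrays within the groups largely follows from the choice. Ap2a1, a subunit of the clathrin adaptor AP-2, read 8.53, 8.38 and 8.49 against 7.50, 7.46 and 7.26, the same order of arrays within AKR F1 as Stard10. Gfi1b, a transcription factor of red cells and platelets, read 10.17, 10.02 and 10.15 against 9.51, 9.57 and 9.37, the same order as Stard10 within both groups. A second probe set of Creg1 differed by -0.22 where its brightest differed by 0.40.

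Of 7 START domain genes outside the family as chosen, 0 passed in limma at the brightest probe set. With 15.2% of all genes past the test, a count of 0 among so few is near the background. At the brightest probe sets the differences ran from -0.14 to 0.24. Pctp, the phosphatidylcholine transfer protein gene most like Stard10 in cargo, was at 6.65 ± 0.13 against 6.41 ± 0.27 (SD, n = 3 each), 0.24 apart (adjusted p = 0.29 in limma). Its dimmer probe set, 1420983_at, differed by 0.01. Acot11, an acyl-CoA thioesterase with a START domain, differed by 0.18 (adjusted p = 0.26 in limma), and by 0.28 at its dimmer probe set, which did not pass. Cert1, the ceramide carrier, differed by -0.14 at its brightest probe set, but by -0.75 at 1420384_at, where limma over all probe sets gave an adjusted p of 0.040. With the mean of its 4 probe sets it differed by -0.39 (adjusted p = 0.049 in limma), and it was named after its values were seen.

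Genes of the metabolism of the lipids carried by STARD10, phosphatidylcholine and phosphatidylethanolamine, differed in both directions. They include phosphatidylserine synthases and choline transporters beside the enzymes that make these lipids. In the list of 19 measured genes AKR F1 was higher at 6, lower at 3 and not separated by the test at 10. That is 47.4% past the test where 15.2% of all genes passed. With dim probe sets left out, 8 of 18 passed, beside 2956 of 11550 genes. The 3′ minus 5′ index and the hybridization controls differed between the groups as given above, and with either as a covariate only 3 or 1 of all 18193 genes passed. Neither overlapped between the groups, so its part in these calls cannot be told apart from that of genotype. The median difference of the list was 0.08, against 0.06 over all genes. Pemt, which methylates phosphatidylethanolamine to phosphatidylcholine, was at 5.49 ± 0.14 against 4.75 ± 0.06 (difference 0.74, SE 0.10, adjusted p = 0.0053 in limma). Ptdss2, a phosphatidylserine synthase gene, was 1.70-fold higher at a level of 11.25 (adjusted p = 0.0056 in limma), and its 8 other probe sets were also higher, by 0.19 to 0.69. Lpcat4 and Lpcat1, acyltransferases that remodel lysophospholipids, differed by 0.70 and 0.38. The other probe sets of Lpcat1 differed by 0.04 to 0.81.

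The route from ethanolamine to phosphatidylethanolamine was split. Pcyt2, which encodes its rate-setting enzyme, was higher by 0.63 (SE 0.13, adjusted p = 0.018 in limma). Selenoi, which performs the last step, was lower, at 7.0 ± 0.08 against 7.65 ± 0.14 (difference -0.65, adjusted p = 0.0077 in limma), and readings elsewhere in the gene differed by -0.26, -0.08 and 0.19, and none of them passed. Etnk1 (ethanolamine kinase), Cept1 (the last step for both lipids) and Pcyt1b (an enzyme of the choline route), named after their values were seen, differed by -0.36, -0.32 and 0.39. The 4 other probe sets of Etnk1 differed by -0.85 to -1.75, and 3 of them passed. A second probe set of Pcyt1b differed by -0.04.

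The 9 calls shrank to 4, 3 higher and 1 lower, on leaving out any single AKR F1 array. Pemt, Ptdss2, Lpcat4 and Selenoi were called in each of the 6 fits lacking an array. With its probe sets averaged Selenoi differed by -0.20 (adjusted p = 0.13 in limma) and lost its call, as did Pcyt1b at 0.17. Pemt was dim, with DBA F1 below the median of every array, and was not among the genes tested once dim probe sets were left out. Pcyt2 and Lpcat1 were called in 3, those with all AKR F1 arrays. Etnk1 and Pcyt1b passed in 1 each and Cept1 in 0. Etnk1 kept its call with its probe sets averaged, at -1.11 (adjusted p = 0.0039 in limma).

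**Figure D5:**
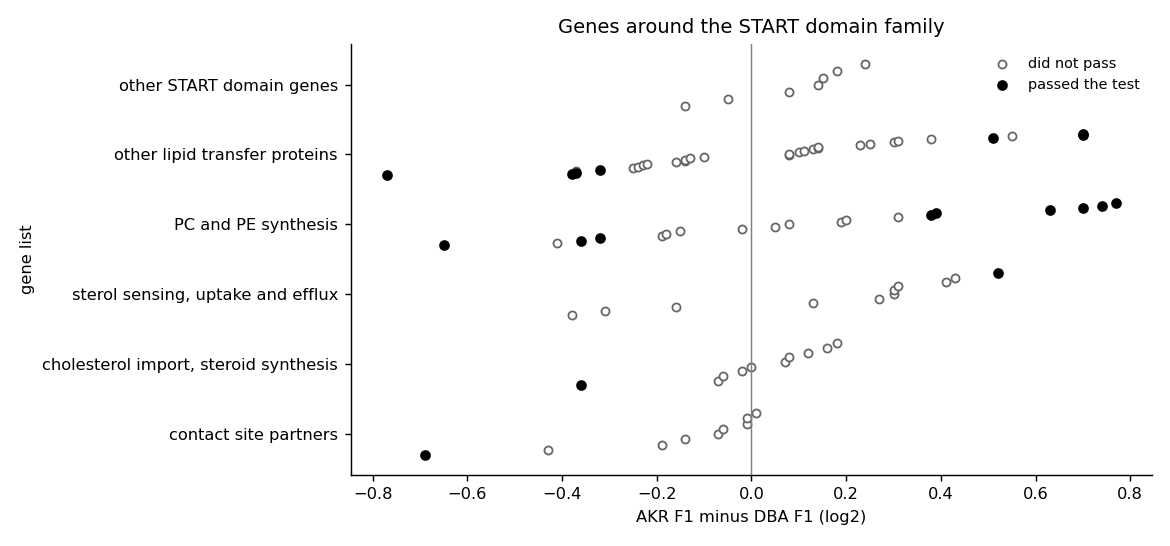
AKR F1 minus DBA F1 difference in log2 (horizontal axis) of each measured gene in the 6 lists (vertical axis; PC and PE stand for phosphatidylcholine and phosphatidylethanolamine), filled where the gene passed limma's test over all genes. The phospholipid synthesis list has filled points on both sides of 0, 6 higher and 3 lower, and the other START domain genes have none.

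The list of other lipid transfer proteins and the STARD3 partner Stard3nl had 3 of 30 higher, 4 lower and 23 not past. That is 23.3% past the test beside 15.2% of all genes, with a median of 0.08 beside 0.06. With dim probe sets left out, 8 of 28 passed, beside 2956 of 11550 genes. Stard3nl encodes a partner of STARD3 that shares its membrane anchor but lacks the START domain. It was at 7.98 ± 0.14 against 7.28 ± 0.09 (difference 0.70, SE 0.10, adjusted p = 0.0069 in limma). Osbpl3, an oxysterol-binding protein relative, was lower by 0.77 on the log2 scale (6.08 ± 0.21 against 6.84 ± 0.11, adjusted p = 0.0083 in limma), with other probe sets at -0.52, which passed, and 0.09. Leaving out any single array kept both calls.

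Esyt2, a tether between endoplasmic reticulum and plasma membrane, differed by -0.38, Osbpl9 by -0.32, Scp2, the sterol carrier protein of peroxisomes, by -0.37, and Pitpnm2, a phosphatidylinositol transfer protein, by 0.70. Gramd1a, a cholesterol carrier of membrane contact sites named after its value was seen, differed by 0.51. These last 5 were less stable: of the 6 fits that left out 1 array, Osbpl9 and Scp2 passed in 0, Esyt2 and Gramd1a in 1 and Pitpnm2 in 2. The 7 calls dropped to 3, 2 and 2 when AKR F1 replicates 1 to 3 were left out in turn, and to 2 and 4 without DBA F1 replicates 2 and 3. After centring each array on its median it was 3. Other probe sets of Scp2 differed by 0.07, 0.42 and -0.64 and of Osbpl9 by 0.10, -0.48, -0.12 and -0.39, with the -0.64 and the -0.48 past the probe set test. With probe sets averaged, Esyt2 (-0.23), Osbpl9 (-0.24) and Scp2 (-0.13) lost their calls.

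Of 11 measured genes of sterol sensing, uptake and efflux, 1 passed, or 9.09%, where 15.2% of all genes passed. With so few genes, that count is near the background. With dim probe sets left out, 2 of 11 passed, beside 2956 of 11550 genes. The median absolute difference was 0.31, against 0.16 over all genes. Nr1h3, which encodes the oxysterol receptor LXR alpha, was at 6.23 ± 0.16 against 5.71 ± 0.16 (difference 0.52, SE 0.12, adjusted p = 0.025 in limma). Insig2, which holds the SREBP escort protein in the endoplasmic reticulum, differed by -0.31 (adjusted p = 0.056 in limma), with other probe sets at -0.42 and -0.64, the latter past the probe set test. The median of the list was 0.30, against 0.06 over all genes, with 8 of 11 differences above 0. The count of 1 became 0 on leaving out AKR F1 replicate 1, 2 or 3 or DBA F1 replicate 3, 3 without DBA F1 replicate 1, and 5 with the mean of each gene's probe sets.

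Of 10 genes of mitochondrial cholesterol import and steroid synthesis, 1 was lower, where 6.04% of all genes were lower and 15.2% passed either way. Acbd3, a Golgi protein reported to work with the import machinery, was at 7.96 ± 0.03 against 8.32 ± 0.04 (difference -0.36, SE 0.08, adjusted p = 0.024 in limma). Further Acbd3 probe sets were lower too, by -0.75, -1.06 and -0.35, the first pair past the probe set test. Tspo, the translocator protein of the outer mitochondrial membrane, differed by 0.16 (adjusted p = 0.36 in limma), and with the mean of its probe sets by -0.01. The call of Acbd3 was lost on leaving out AKR F1 replicate 1, 2 or 3 or DBA F1 replicate 2.

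Of 9 genes at the contact sites and in the sphingolipid route where CERT1 works, 1 was lower and 8 did not pass, so 11.1% passed, where 6.04% of all genes were lower and 15.2% passed either way. Sgms1, a sphingomyelin synthase of the Golgi, was at 7.95 ± 0.09 against 8.63 ± 0.16 (difference -0.69, SE 0.11, adjusted p = 0.0080 in limma) and stayed past the threshold without any single array. Further probe sets differed by -0.54, -0.54 and 0.35, and the first pair passed the probe set test. Sgms2 differed by -0.43 (adjusted p = 0.14 in limma).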

How the data were processed

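Trizol RNA of frozen marrow from 6 samples was biotin-labelled and run on Affymetrix arrays, per the labels. The values the authors deposited are on a log2 scale (2.26 to 14.88, 45101 probe sets) and lie on a common scale, with array upper quartiles from 7.34 to 7.43. RMA and MAS5 are both listed in the submitters' processing notes. Which of them made the table, the genome build and any batches are not given in the sources used here. The number of arrays limits the precision. The labels do not tie arrays to animals, so p-values reflect only the spread between these samples. Titles gave the groups and replicate numbers, and 0 sample columns went unused.

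The 64 control probe sets were removed. The rest (45037) were compared, AKR F1 minus DBA F1, by limma 3.58.1 under R 4.3.3, two-sided, with p-values adjusted by Benjamini-Hochberg over the whole table and called at 0.05. Lists and neighbours were read from a second fit with 1 probe set for each of 18193 genes, the brightest with a single symbol. Symbols and gene order came from a RefSeq table (GRCm38.p6). Members and lists were chosen with earlier results of these data known. The text names all members, up to 6 genes past the test per list (or the 2 with the smallest p where fewer than 2 passed), all Stard10 neighbours, the other members' neighbours past the test and the 5 genes most correlated with Stard10. Exceptions are marked, and 1 further gene list is not reported here. Other scalings, filters, variance models, weights, a replicate block, removal of each array, averaging of probe sets and, chosen after seeing the data, control-probe covariates were tried as alternatives. The limma fit was also run on simulated data with independent noise on each array, so that run gives no error rate for these arrays.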

Additional observations from a re-analysis of the deposited data

How the results depend on the processing

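The Stard10 difference stayed between 1.52 and 1.76 under the other scalings, filters, variance models, weights, block and single-array removals, and at 1.87 and 1.84 with the 3′ to 5′ index and the hybridization controls as covariates, which were added after seeing the data. Those covariates cut the probe sets past the test from 5541 to 53 and 10 and the genes from 2771 to 3 and 1. Neither covariate overlapped between the groups, so with 6 arrays its part cannot be told apart from that of genotype. The SE of the Stard10 difference rose from 0.14 to 0.26 and 0.35. The cause was not tested. Leaving out 1 array gave 1683 to 5581 probe sets and 685 to 3248 genes. The labels do not say whether the replicate numbers pair the arrays. Correlations of same-numbered deviations from the group means were 0.053, 0.017 and 0.084. The best-matching DBA F1 array was the same-numbered one for AKR F1 replicates 1 and 3 but not for replicate 2. These values cannot settle whether the arrays were paired. With the replicate number as a block the Stard10 difference was 1.67. The Stard10 neighbours past the test then fell from 5 to 2 and the cholesterol import and steroid list from 1 to 0. Median centring gave 3 other lipid transfer genes in place of 7. The sterol list had 2 past the test with quantile normalization, 2 without dim probe sets, 3 with array weights and 5 with the mean of each gene's probe sets. Array weights gave 1 neighbour of the other members, and the mean of probe sets gave 1 other START domain gene, 2 contact site genes and 3 Stard10 neighbours. Tspo turned to -0.01 with the mean of its probe sets, where more probe sets enter. Leaving out 1 array, the lists ranged from 2 to 6 (other lipid transfer), 4 to 7 (phospholipid synthesis), 0 to 3 (sterol), 0 to 1 (cholesterol import), and 0 to 6 (Stard10 neighbours). Of 29 named genes past the test, 10 kept direction and call under all of these that were run, the added covariates aside. Many of the named genes were picked for a small p or for their correlation with Stard10 on these same arrays. That count therefore does not measure how stable other results are. Low signals limit Star, Stard13, 1 Stard5 probe set and Pemt, which fell out with the dim probe sets.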
